A study of Mus musculus with 4 samples.

Results

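The genes described here are 48 DNA replication and nucleotide synthesis genes, taken from a list of symbols and placed in 9 role groups that follow the steps of DNA synthesis. Of these, 47 were found in the array's annotation through 86 probe sets, and Gins2 was not analysed here. Where a gene had several probe sets, the one brightest on average across the arrays was used. Of the 47, 37 reached the floor of 7.53 on the log2 scale on at least 1 array, among 7179 such genes out of 12393 named ones. The floor is the median of all values in the table. The other 10 (Orc1, Cdc6, Cdc45, Gins1, Cdc7, Ccne2, Pola1, Pole, Rfc4 and Tyms) lay below it on every array, and their values are given but not counted. Of the members that reached it, 29 did so on all 4 arrays. Mcm5 and Pold1 did so only in polysome RNA with the wild-type label and Mcm10 only in total RNA with that label, so for these 3 genes a lower reading under the heterozygote label was favoured by the filter.

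The study measured mouse embryonic fibroblasts, connective tissue cells cultured from embryos, of the strain labelled C57/BJ6. It crossed a genotype label, Npm1+/- (Het, the heterozygote) or Npm1+/+ (WT, the wild type), with an RNA label, polysome RNA or total RNA. Npm1 encodes nucleophosmin, a nucleolar protein of ribosome assembly, and the series concerns germline mutations of this gene and methylation of ribosomal RNA. There was 1 Affymetrix array in each of the 4 groups, so no difference below has a replicate error and none was tested. The allele of Npm1, the embryos, the passage and whether polysome and total RNA came from the same culture are not given in the labels.

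Cells keep loading of the helicase and firing of origins apart in time. In G1 the origin recognition complex, Cdc6 and Cdt1 load the ring of Mcm2 to Mcm7 onto DNA; in S phase kinases, Cdc45 and the GINS complex turn the loaded ring into a moving helicase. Polymerase alpha and primase then start each strand, replication factor C loads the sliding clamp Pcna, and polymerases delta and epsilon extend the strands from deoxynucleotides made by ribonucleotide reductase or recovered by salvage kinases. Many of these genes are known targets of the E2F transcription factors, which switch them on as cells pass from G1 into S phase, and in fibroblast cultures they are expressed mainly by cycling cells.

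Because E2F sites are the shared promoter feature this pathway is best known for, the promoters of the members were searched for them. The 4 words searched were TTTCCCGC, TTTCGCGC, TTTGCCGC and TTTGGCGC, on both strands, in RefSeq promoters (GRCm38.p6) that run from 250 bases before to 50 after each gene's start. Of the 48 members 40 had an entry, and 13 of these 40 (32.5%) held at least 1 word, against 704 of 27025 genes (2.6%) and 744 of 32851 promoters (2.26%). Those 13 were Orc1, Orc3, Cdc6, Cdt1, Mcm3, Mcm5, Mcm6, Mcm7, Pola1, Pold1, Pole2, Rfc3 and Lig1. Both licensing genes with an entry and 4 of the 5 MCM genes with one held a word, and none of the 6 nucleotide synthesis genes did. Below are the 250 bases before the start of 1 member from each of 5 role groups, the one with the most words, written 5′ to 3′ on the gene's strand. In that stretch alone 8 of the 40 members (20%) held a word, against 2.16% of all genes, and Cdt1, Mcm3, Pold1, Pole2 and Lig1 had theirs after the start or across it. Capitals mark the E2F words, and in Mcm6 a pair of words overlaps within one run of capitals.
Orc1 promoter (chr4:108579204-108579453, plus strand): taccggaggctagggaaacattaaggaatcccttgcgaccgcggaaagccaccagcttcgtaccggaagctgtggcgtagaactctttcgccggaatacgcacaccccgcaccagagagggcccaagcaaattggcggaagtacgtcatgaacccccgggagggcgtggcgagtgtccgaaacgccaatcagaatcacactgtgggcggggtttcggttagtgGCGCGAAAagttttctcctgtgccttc
Cdc6 promoter (chr11:98907901-98908150, plus strand): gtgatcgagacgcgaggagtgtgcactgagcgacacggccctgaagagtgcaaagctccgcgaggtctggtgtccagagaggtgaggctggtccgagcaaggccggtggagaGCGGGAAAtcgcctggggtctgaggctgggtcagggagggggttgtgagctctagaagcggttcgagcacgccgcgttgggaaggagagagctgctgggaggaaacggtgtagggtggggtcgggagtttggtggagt
Mcm6 promoter (chr1:128359706-128359955, minus strand): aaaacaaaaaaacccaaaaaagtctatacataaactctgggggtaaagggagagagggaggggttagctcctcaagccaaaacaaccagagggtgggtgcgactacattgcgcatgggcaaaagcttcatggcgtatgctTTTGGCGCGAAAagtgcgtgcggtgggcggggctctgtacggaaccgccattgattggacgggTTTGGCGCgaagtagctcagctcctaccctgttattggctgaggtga
Pola1 promoter (chrX:93632156-93632405, minus strand): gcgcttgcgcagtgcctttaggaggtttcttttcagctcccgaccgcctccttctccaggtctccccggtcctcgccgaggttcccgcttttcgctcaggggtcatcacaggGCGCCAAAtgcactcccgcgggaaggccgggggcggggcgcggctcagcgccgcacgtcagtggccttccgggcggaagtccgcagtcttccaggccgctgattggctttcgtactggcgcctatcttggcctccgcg
Rfc3 promoter (chr5:151651209-151651458, minus strand): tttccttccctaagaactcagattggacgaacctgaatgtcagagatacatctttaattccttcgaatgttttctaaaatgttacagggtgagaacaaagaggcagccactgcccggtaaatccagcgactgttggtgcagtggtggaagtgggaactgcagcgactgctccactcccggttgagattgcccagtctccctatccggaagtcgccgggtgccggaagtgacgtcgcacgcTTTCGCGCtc

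The Mcm6 promoter had 3 words and each of the others 1 in the stretch shown. A pair of other cell-cycle words was searched in the same way. The NF-Y word CCAAT was found in 22 of the 40 members (55%), against 41.1% of all genes. The CHR word TTTGAA, a short element known from G2 and M phase genes, was found in 6 of 40 (15%), against 20.2% of all genes. A word is a match of letters and shows no binding.

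Before the members, the label of the arrays was checked on Npm1. Its brighter probe set read 11.96 in Het total RNA against 11.91 in WT total RNA, and 12.84 in Het polysome RNA against 12.93 in WT polysome RNA. These differences were 0.05 and -0.09 on the log2 scale, and the other probe set gave 0.07 and 0.06, while loss of signal from a single copy would give -1. Npm1 RNA therefore did not follow the genotype labels, and Het and WT below mean only the libraries that carry those labels. All 12 fibroblast markers reached the floor on every array, with median levels of 12.9 to 13.1. Of 14 macrophage markers, 9 reached it in Het polysome, 7 in WT polysome and 3 in each total RNA, and the log2 of their summed level was 12.0 in Het and 11.6 in WT polysome RNA, and 10.7 in Het and 10.4 in WT total RNA. Endothelial and epithelial lists had at most 1 marker at the floor, and skeletal muscle and neural lists 2 of 4 each. Differences between the 3′ and 5′ control probe sets ran from 0.01 to 0.06 for beta-actin and from -0.09 to 0.12 for Gapdh, and the array medians from 7.47 to 7.59.

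Between the genotype labels the replication genes lay on both sides. In total RNA 5 of the 37 members read at least 1.5-fold higher in the Het library (Gmnn, Rfc3, Rfc5, Chtf8 and Dck), where 7.42% of all 7179 genes did. At least 1.5-fold lower were 4 (Mcm3, Mcm4, Mcm7 and Rrm1), where 6.23% of all genes were. In polysome RNA 2 read higher by this rule (Chtf8 and Dck; 2.08% of all genes) and 4 lower (Mcm3, Mcm4, Pold1 and Rrm1; 5.86% of all genes). These are small counts, and the lower ones hold 3 subunits of the same helicase. Of the 5 higher in total RNA, 2 were also so in polysome RNA, and those were the 2 higher there. Of the 4 lower in each RNA, 3 were shared. Over all genes, those lower in both RNAs made up 76.1% of the genes lower in total and 80.8% of those lower in polysome RNA, and those higher in both 20.5% and 73.2%.

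The median member differed by 0.14 in total and 0.08 in polysome RNA, and the median of all genes by 0.19 and 0.11. A difference of 0 therefore does not mark the middle of these arrays. Set against the median gene, 2 members were at least 1.5-fold higher in total RNA (Chtf8 and Dck; 1.37% of all genes) and 8 lower (11.3%), namely Mcm2, Mcm3, Mcm4, Mcm6, Mcm7, Pold1, Lig1 and Rrm1. In polysome RNA the same setting gave 2 higher (0.85%) and 6 lower (8.29%). Without replicates the one measure of technical disagreement is the SD of the difference between probe sets of the same gene, which was 0.32 in total and 0.28 in polysome RNA over 2700 genes. Fewer cycling cells and less RNA per cell cannot be told apart in such bulk RNA.

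**Figure D1:**
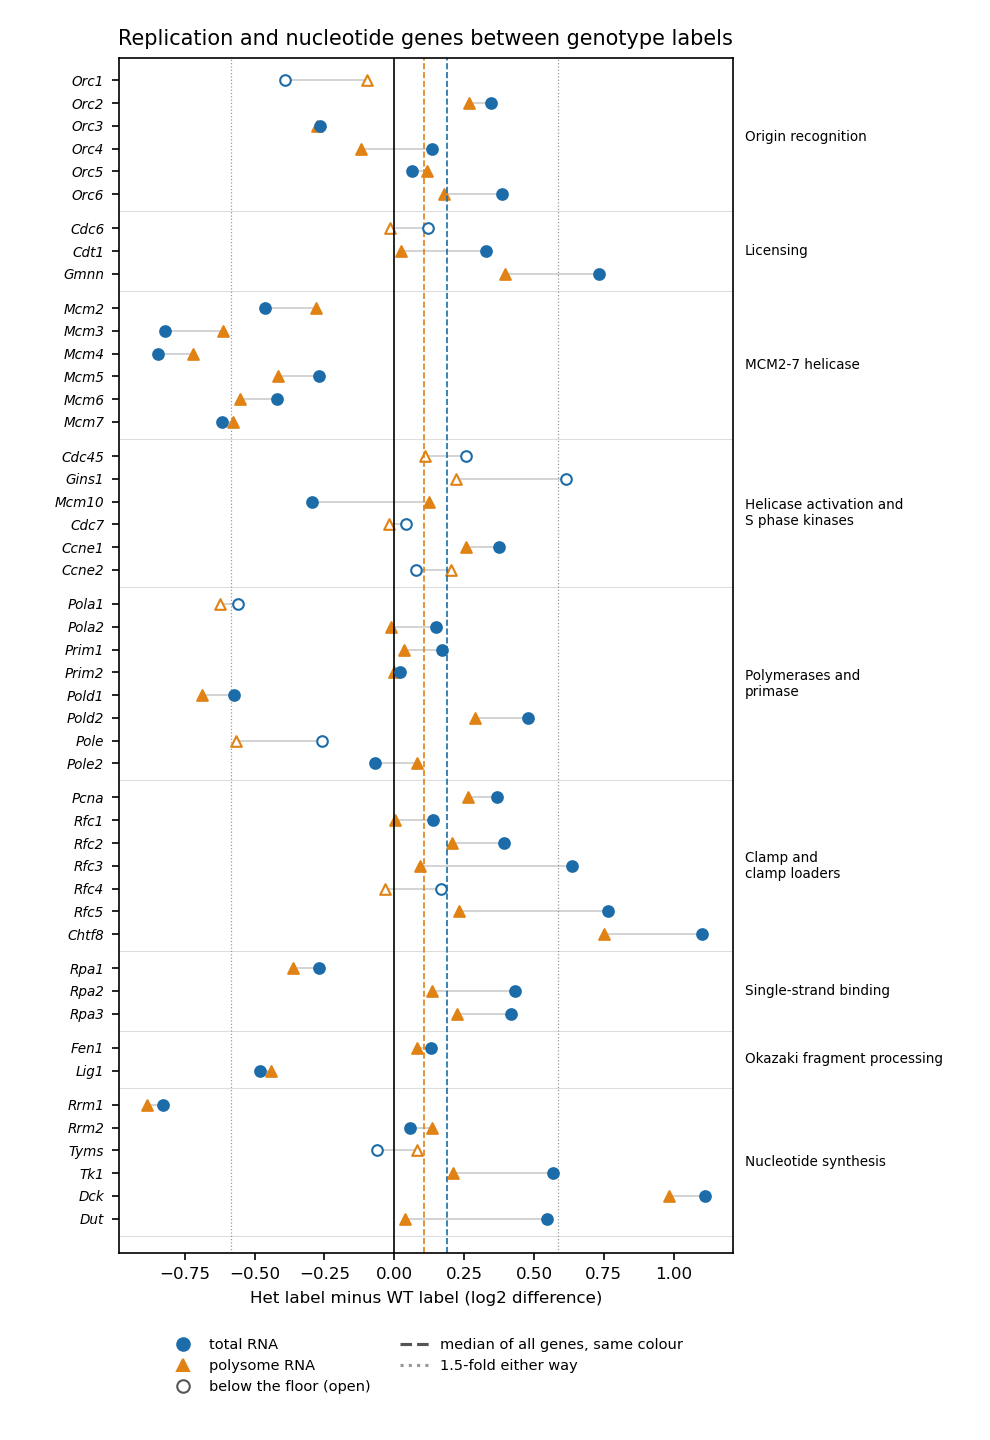
Het minus WT label log2 difference for every member with a probe set, grouped by role; circles are total RNA, triangles polysome RNA, open marks genes below the floor, dashed lines the medians of all genes and dotted lines 1.5-fold. All MCM genes lie left of 0 in both RNAs under every scaling tried, and the clamp and loader genes at the floor lie right of it as deposited (under some scalings Rfc1 changes side, and Rfc3 does in polysome RNA).

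The origin recognition complex, which marks the sites where replication can start, had no member past 1.5-fold between genotype labels in either RNA. Orc2 read 8.68 in Het against 8.34 in WT total RNA, and 8.64 against 8.38 in polysome RNA. Orc6 read 8.93 in Het against 8.55 in WT total RNA, and 8.89 against 8.71 in polysome RNA. Both were higher in the Het libraries by 0.18 to 0.38, while Orc3 was lower by 0.27 and 0.28. Orc3 probe sets below the floor gave 0.02 and -0.17 in total RNA, and 0.11 and 0.14 in polysome RNA. Its lower polysome reading therefore rests on the probe set used. The used probe sets of Orc4 and Orc5 lay between -0.12 and 0.14, but the other Orc4 probe sets at the floor gave 0.46 and 0.39 in total RNA and 0.41 and 0.06 in polysome RNA, so the size for Orc4 depends on the probe set. Orc1 was below the floor, at 5.97 in Het against 6.36 in WT total RNA and 6.56 against 6.66 in polysome RNA.

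Among the licensing genes Gmnn stood out. It encodes geminin, the inhibitor that binds Cdt1 and blocks reloading of the helicase after S phase has begun. Gmnn read 8.03 in Het against 7.29 in WT total RNA, and 8.38 in Het against 7.99 in WT polysome RNA. The WT total array was the lowest of the 4 and the one reading under the floor. The Het library was 1.66-fold higher in total RNA and 1.31-fold in polysome RNA. Cdt1, the loader that geminin holds back, read 8.53 in Het against 8.20 in WT total RNA, and 8.86 against 8.83 in polysome RNA. A further Cdt1 probe set at the floor gave -0.04 and -0.01, so no difference of Cdt1 is carried by both. Cdc6, the ATPase that works with Cdt1, was below the floor, at 5.63 in Het against 5.51 in WT total RNA and 6.09 against 6.10 in polysome RNA.

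The subunits of the replicative helicase made up the clearest group. All 6 read lower in the Het library in both RNAs, where 33.6% of all genes were below 0 in total RNA and 36.6% in polysome RNA. Their median difference was -0.54 in total and -0.56 in polysome RNA, or -0.73 and -0.67 relative to the median gene. Every one of their 16 probe sets was below 0 as well, from -1.18 to -0.21 in total and from -0.96 to -0.06 in polysome RNA. Each MCM gene that could be counted stayed below 0 under all of the probe set, floor and scaling choices tried.

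With the probe sets used, Mcm4 differed most, and without shared probe sets Mcm7 did. Mcm4 read 8.16 in Het against 9.01 in WT total RNA, and 8.60 in Het against 9.32 in WT polysome RNA. Both Het values lay under both WT values, a difference of -0.85 (1.80-fold lower) in total and -0.72 (1.65-fold) in polysome RNA. Mcm3 read 7.22 in Het against 8.04 in WT total RNA, and 7.54 against 8.16 in polysome RNA. It was 1.76-fold and 1.53-fold lower, with the Het total array under the floor. Its 4 other probe sets were lower too, by 0.06 to 0.87.

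Mcm7 read 9.83 in Het against 10.44 in WT total RNA, and 10.11 in Het against 10.69 in WT polysome RNA. Here too both Het arrays lay under both WT arrays, by 0.62 in total RNA and 0.58 in polysome RNA. Another Mcm7 probe set at the floor gave -0.88 and -0.96. Mcm6 read 8.28 in Het against 8.70 in WT total RNA, and 8.64 against 9.19 in polysome RNA. Mcm2 read 8.35 in Het against 8.81 in WT total RNA, and 8.79 against 9.06 in polysome RNA. For these 2 subunits the Het polysome value lay just under the WT total value, so the labels came close without overlapping. Mcm5 was the subunit nearest the floor, at 7.25 in Het against 7.52 in WT total RNA and 7.50 against 7.92 in polysome RNA, and it has the single probe set. The probe sets used for Mcm2, Mcm3 and Mcm7 carry the ending that marks probes shared between transcripts, and without such probe sets the MCM median was -0.64 in total and -0.69 in polysome RNA.

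**Figure D2:**
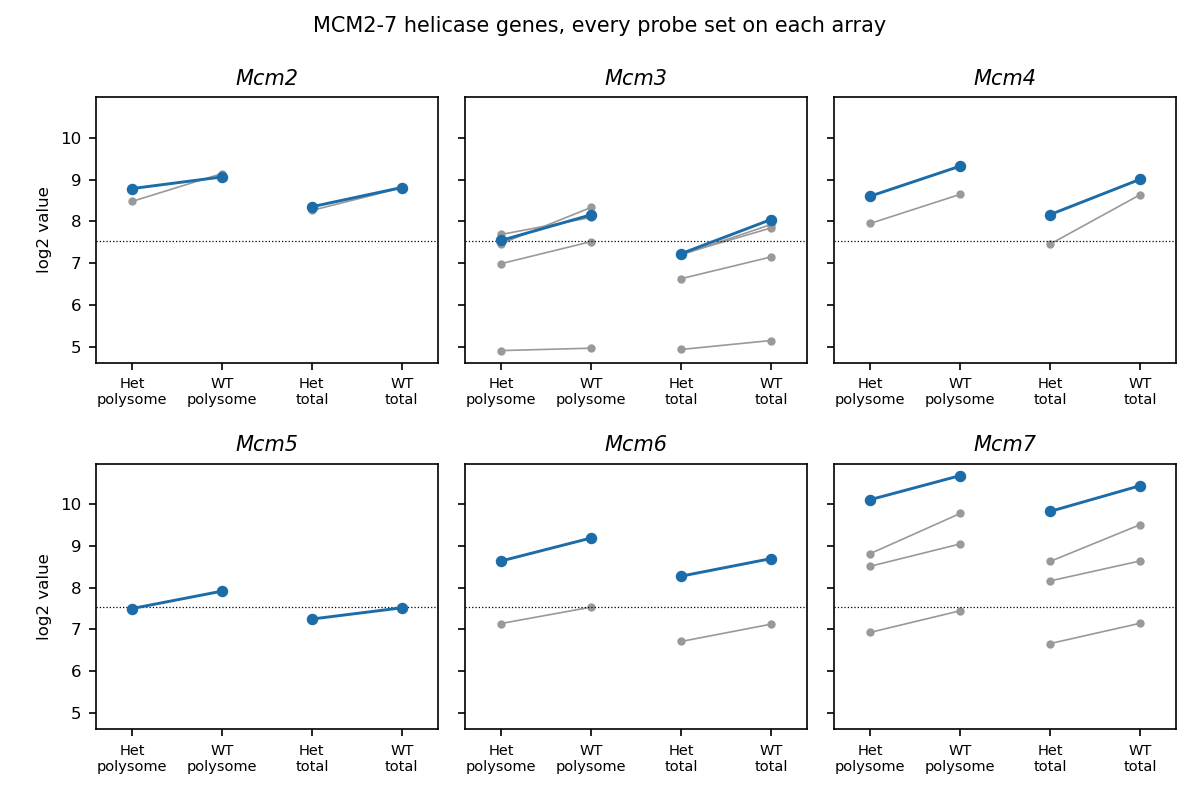
Log2 value of each probe set of the 6 MCM genes on the 4 arrays, in the order Het polysome, WT polysome, Het total, WT total; blue is the probe set used, grey the others, and the dotted line the floor of 7.53. Every line climbs from the Het to the WT array in both RNAs, and the least steep is a Mcm3 probe set near 5, below the floor.

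Genes that act on the loaded helicase were mostly too dim to count, with 2 of the 6 read at the floor. Ccne1, the cyclin that drives Cdk2 at the start of S phase, read 9.44 in Het against 9.07 in WT total RNA, and 9.35 against 9.09 in polysome RNA. Its differences of 0.37 and 0.26 ran opposite to those of the helicase. Mcm10, a replication factor that is not a subunit of the ring, read 7.33 in Het against 7.62 in WT total RNA, and 7.26 against 7.14 in polysome RNA. The WT total array was the highest, and the sign differed between the RNAs. Gins1, a subunit of the GINS complex, was below the floor on all arrays, at 6.99 in Het against 6.37 in WT total RNA and 7.07 against 6.84 in polysome RNA. Cdc45, Cdc7 and Ccne2, also below it, lay between -0.02 and 0.26.

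Polymerase subunits were split. Pold1, the catalytic subunit of polymerase delta, read 6.74 in Het against 7.31 in WT total RNA, and 7.18 in Het against 7.86 in WT polysome RNA. It was 1.49-fold lower in total and 1.61-fold lower in polysome RNA, with the WT polysome array alone at the floor. Its second probe set, below the floor, gave -0.29 and -0.20. Pold2, the accessory subunit of the same enzyme, had differences of 0.48 and 0.29, so the 2 subunits ran opposite ways. Pola1, the catalytic subunit of polymerase alpha, was below the floor at 5.98 in Het against 6.54 in WT total RNA and 6.09 against 6.72 in polysome RNA. Pole, the catalytic subunit of polymerase epsilon, was below it too and lower by 0.26 and 0.57. The used probe sets of Pola2, Prim1, Prim2 and Pole2 lay between -0.07 and 0.17. Further probe sets at the floor gave 0.55 and 0.33 for Prim1, the catalytic subunit of primase, and 0.22 and 0.13 for Prim2.

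The clamp and its loaders ran the other way from the helicase. All 6 genes at the floor read higher in the Het library, where 66.1% of all genes were above 0 in total RNA and 62.9% in polysome RNA. Their median difference was 0.51 in total and 0.22 in polysome RNA, and 0.33 and 0.11 relative to the median gene, with Rfc1 then below 0 in both RNAs and Rfc3 in polysome RNA. In total RNA the highest MCM difference (-0.27) and the lowest clamp or loader difference (0.14) left the groups apart. Pcna, the sliding clamp, differed by 0.37 and 0.26, and Rfc2 by 0.39 and 0.21. Rfc1 was lowest of the 6, at 0.14 in total and 0.003 in polysome RNA. Its other probe set at the floor gave 0.03 and -0.06, and a dim probe set 0.50 and 0.24. The polysome sign of Rfc1 therefore depends on the probe set.

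Chtf8, a small subunit of an alternative clamp loader that helps sister chromatids hold together, read 10.31 in Het against 9.21 in WT total RNA, and 10.16 in Het against 9.41 in WT polysome RNA. Both Het arrays lay above both WT arrays, by 1.10 (2.14-fold) in total and 0.75 (1.68-fold) in polysome RNA, and 0.237% of all genes were 2-fold higher or more in total RNA. Rfc5, a small subunit of replication factor C, read 9.03 in Het against 8.27 in WT total RNA, and 8.76 against 8.53 in polysome RNA. Rfc3, another small subunit, read 8.18 in Het against 7.54 in WT total RNA, and 8.25 against 8.16 in polysome RNA. For both, WT total was the lowest array, and the difference of 0.77 and 0.64 in total RNA was 0.23 and 0.09 in polysome RNA. Rfc4 was below the floor, at 0.17 and -0.03.

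At the fork itself, the single-strand binding protein and the enzymes that join Okazaki fragments each held members of both directions. Rpa1, the large subunit of replication protein A, read 10.99 in Het against 11.26 in WT total RNA, and 11.21 against 11.57 in polysome RNA. Rpa3, its smallest subunit, read 8.23 in Het against 7.81 in WT total RNA, and 8.35 against 8.13 in polysome RNA. Rpa2 went with Rpa3, at 0.43 and 0.13. Lig1, the ligase that seals the fragments, read 7.99 in Het against 8.47 in WT total RNA, and 8.23 against 8.68 in polysome RNA, or 0.48 and 0.44 lower. Fen1, the nuclease that trims their flaps, read 10.60 in Het against 10.46 in WT total RNA and 10.58 against 10.50 in polysome RNA, and its sign turned under some scalings.

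Nucleotide synthesis held Dck, the highest member in both RNAs, and Rrm1, the lowest in polysome RNA and next to Mcm4 in total RNA. Rrm1, the large subunit of ribonucleotide reductase, read 9.05 in Het against 9.88 in WT total RNA, and 9.27 in Het against 10.15 in WT polysome RNA. All Het values lay below all WT values, 1.77-fold in total and 1.85-fold in polysome RNA. A second Rrm1 probe set gave 8.47 in Het against 10.04 in WT total RNA and 8.88 against 10.30 in polysome RNA, so both show the direction while their sizes differ by 0.74 in total RNA. Rrm2, the small subunit of the same enzyme, lay at 0.06 and 0.13, with 3 probe sets at the floor between -0.28 and 0.13. Thus the reductase's subunits differed unequally between the labels.

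Dck, the kinase that salvages deoxycytidine, read 8.99 in Het against 7.87 in WT total RNA, and 9.10 in Het against 8.12 in WT polysome RNA. Both Het arrays were higher, by 1.11 (2.16-fold) and 0.98 (1.98-fold). The 2 other Dck probe sets were below the floor and gave -0.06 and -0.15 for one and 0.50 and 0.43 for the other, so the size rests on a single probe set. Dck and Chtf8 had been picked out in earlier work on these arrays and are no independent evidence. Tk1, the thymidine salvage kinase of S phase, lay at 0.57 and 0.21. Dut, which removes dUTP so that uracil is kept out of DNA, read 9.04 in Het against 8.49 in WT total RNA, and 9.70 against 9.66 in polysome RNA. Tyms, which makes thymidylate, was listed below the floor, at 4.97 in Het against 5.04 in WT total RNA and 4.88 against 4.80 in polysome RNA.

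**Figure D3:**
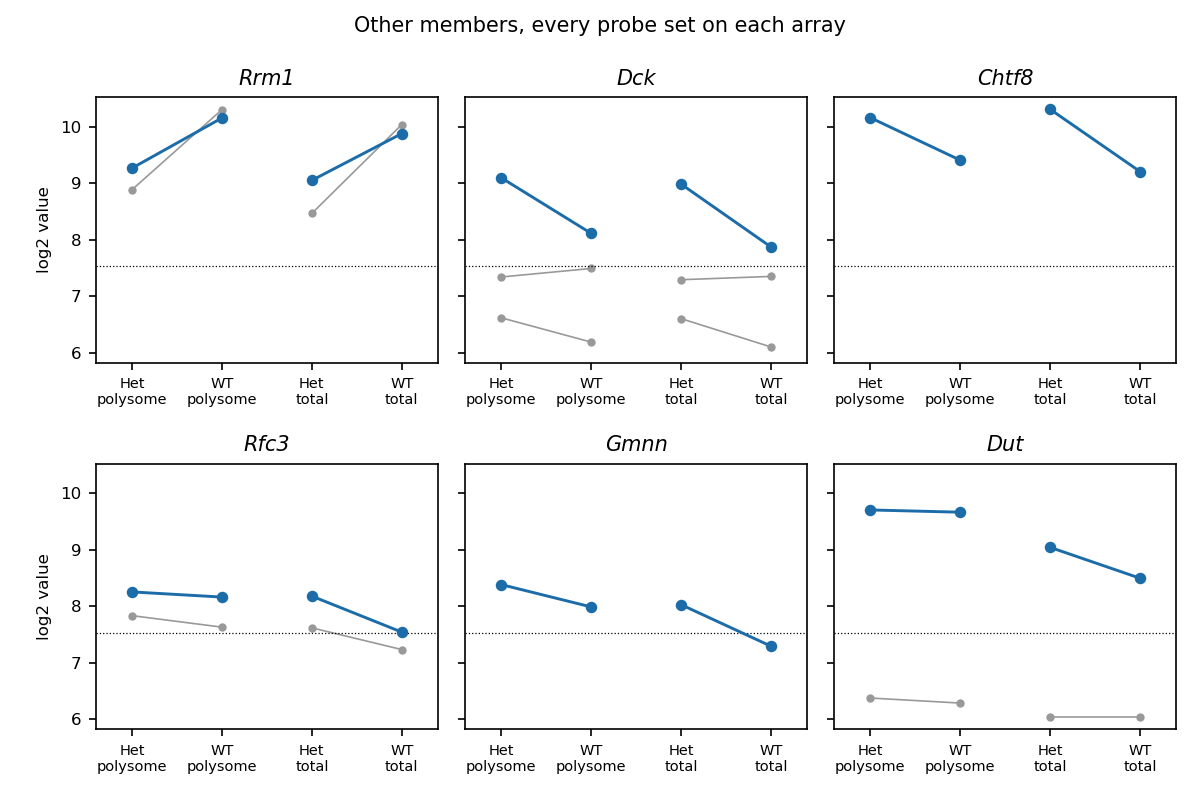
Log2 value of every probe set of members outside the MCM group whose differences are described, on the 4 arrays in the order Het polysome, WT polysome, Het total, WT total; blue is the probe set used, grey the others, dotted line the floor of 7.53. Both Rrm1 probe sets are lower on the Het arrays, while the Dck probe sets at and below the floor do not share one slope.

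Total and polysome RNA gave much the same picture, from arrays that the 2 comparisons do not share. Over the 37 members the genotype differences correlated with Pearson's r of 0.93 and Spearman's rho of 0.86, and over all 7179 genes with 0.91 and 0.88, so the members matched the array-wide pattern. Genes are not independent replicates, the RNAs of a label may share a culture, and this is a description. Of the 37, 21 were above 0 in both RNAs, 11 below 0 in both, and 4 had opposite signs (56.8%, 29.7% and 10.8%). Over all genes these shares were 58.3%, 28.9% and 12.1%, so the members did not stand apart in them. The members can also be read by their promoters. Of 10 members at the floor with a word, 7 read lower in the Het library in both RNAs (Orc3, Mcm3, Mcm5, Mcm6, Mcm7, Pold1 and Lig1) and 2 higher in both. Of 23 with a promoter entry and no word, 3 read lower in both and 17 higher. Of all genes at the floor 28.9% read lower in both and 58.3% higher in both. Mcm5 and Pold1 reached the floor only on WT arrays, which favoured a lower Het reading. The lower polysome reading of Orc3 rests on the probe set used. As 4 of the 7 are MCM subunits these are not separate observations, and Rrm1, the member with the lowest polysome difference, had no word in its window.

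**Figure D4:**
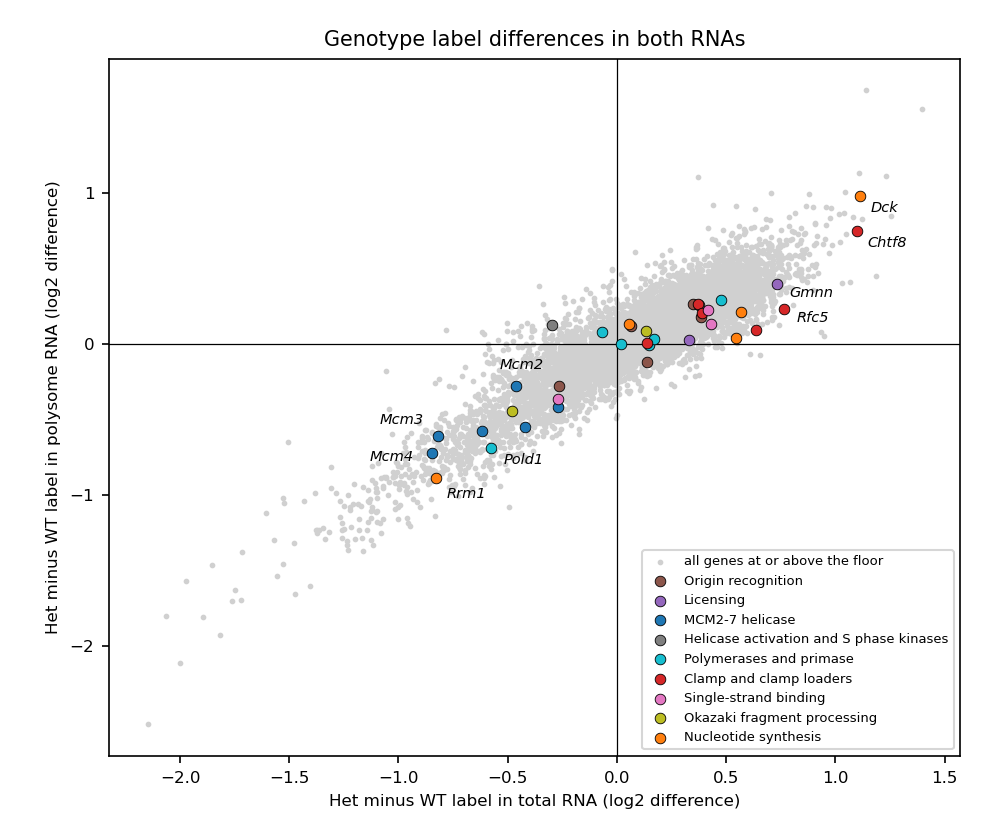
Het minus WT label log2 difference in total RNA (x) against polysome RNA (y) for all 7179 genes at or above the floor in grey and the 37 members coloured by role. The MCM genes and Rrm1 lie at the lower left, with differences of -0.27 to -0.89, and Dck and Chtf8 at the upper right.

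Markers of cycling cells were read beside these differences. The log2 summed level of 14 mitosis genes was 12.7 on every array, and the 12 at the floor had median differences of -0.03 in total and -0.12 in polysome RNA. Among them Top2a, the topoisomerase that untangles sister chromatids, differed most, at -1.12 and -1.08, and Ccnb2 lay at 0.53 and 0.19. Macrophage markers at the floor had median differences of 0.25 and 0.27. Among them C1qc and Cd53 reached the floor only on the Het polysome array, so the filter favoured a higher Het reading for them. The polysome median is the value of Cd53. The log2 summed level of 4 neural markers was 9.89 in Het against 10.4 in WT total RNA, and 9.78 in Het against 10.3 in WT polysome RNA. Their median level did not run that way, at 7.54 in Het against 7.39 in WT total RNA, and 7.33 against 7.32 in polysome RNA. Nes, the intermediate filament gene nestin, lay at -0.91 and -0.75. Tubb3, at the floor only on the Het arrays, lay at 0.54 and 0.17. Below the floor, Mapt lay at -0.23 and -0.14 and Sox2 at 0.23 and 0.10. The part of any of these in the members' differences was not tested.

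The same pathway was read beyond the members. Of 31 further replisome and checkpoint genes 14 reached the floor, with medians of 0.09 in total and -0.07 in polysome RNA. None passed 1.5-fold in total RNA, where 7.42% of all genes were higher and 6.23% lower by that rule. In polysome RNA 2 were lower, as were 5.86% of all genes. These were Atr, the kinase of replication stress, at -0.71 and Pole4, a polymerase epsilon subunit, at -0.65. Atr reached the floor only on the WT polysome array, so the filter favoured a lower Het reading for it. In total RNA the widest were Slbp, the histone mRNA binding protein, at 0.57 and Gins4 at 0.54.

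Genes that make purines, pyrimidines and folate cofactors lay mostly lower. Of the 15 of 24 at the floor, 10 were below 0 in total and 12 in polysome RNA, where 33.6% and 36.6% of all genes were, with medians of -0.14 and -0.12. At least 1.5-fold lower were 3 and 2, as were 6.23% and 5.86% of all genes, and 0 were higher by that rule. Cad, which begins pyrimidine synthesis, read 7.66 in Het against 8.66 in WT total RNA, and 7.84 in Het against 9.00 in WT polysome RNA. Gart, a purine synthesis enzyme, read 8.63 in Het against 9.58 in WT total RNA, and 8.72 in Het against 9.92 in WT polysome RNA. In polysome RNA both were more than 2-fold lower (1.17% of all genes were). One of the other Gart probe sets gave -0.55 and -0.62 and another 0.13 and 0.05, so its probe sets disagree.

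Kinases, salvage and turnover enzymes lay mostly higher, with 18 of the 19 at the floor above 0 in total RNA and all 19 in polysome RNA, against 66.1% and 62.9% of all genes. Their medians were 0.42 and 0.25, against 0.19 and 0.11 for all genes, and 2 and 1 were at least 1.5-fold higher, as were 7.42% and 2.08% of all genes. Nudt1, which clears oxidised nucleotides, lay at 0.84 and 0.42, Nt5c, a nucleotidase, at 0.61 in total RNA, and Rrm2b, the reductase subunit induced by p53, at 0.53 and 0.61. Samhd1 was counted as above 0 through a probe set at 0.16 and 0.04. Its other probe sets, also at the floor, ran from -0.48 to -0.16 in total and from -0.31 to -0.07 in polysome RNA. Of the regulators of entry into S phase 24 of 32 reached the floor, 22 of them above 0 in each RNA (66.1% and 62.9% of all genes were), with medians of 0.31 and 0.15. At least 1.5-fold higher were 6 in total and 1 in polysome RNA, where 7.42% and 2.08% of all genes were. Cdkn2a, a locus of cell-cycle inhibitors, lay at 0.94 in total and 0.08 in polysome RNA. Rbl2, a pocket protein that restrains E2F targets, lay at 0.84 and 0.50. It reached the floor only on the Het arrays (7.79 and 7.91, against 6.95 and 7.42 under the WT label). The filter therefore favoured a higher Het reading for Rbl2. Cdkn1b, the inhibitor p27, lay at 0.69 and 0.59. The rest of the 6 in total RNA were Skp2, at 0.71 and 0.37, Ccnd1, a cyclin, at 0.67 and 0.37, and Cdkn1a at 0.60 and 0.42.

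Between the RNA labels most members read higher in polysome than in total RNA. In the WT libraries 34 of 37 were above 0, where 75.6% of all genes were, and in the Het libraries 25, where 65.1% were. Orc5, Mcm5, Pold1 and Pole2 reached the floor only in polysome RNA, so the filter favoured a higher polysome reading for them. Mcm10 reached it only in total RNA, which favoured a lower one. The median member lay at 0.12 under the Het and 0.24 under the WT label, against 0.07 and 0.14 for all genes. At least 1.5-fold higher in polysome RNA was Dut under the Het label (2.24% of all genes), and Dut, Gmnn, Cdt1 and Rfc3 under the WT label (3.65%). No member at the floor was 1.5-fold lower under either label (1.35% and 1.56% of all genes). The summed macrophage level given above moved with the RNA label. Among macrophage markers at the floor C1qb, Ctss and Lyz2 differed most between RNAs. They were 2.97, 2.40 and 2.25 higher in polysome RNA under the Het label, and 2.44, 2.43 and 2.23 under the WT label. C1qb and Ctss reached the floor only in polysome RNA, so the filter favoured a higher polysome reading for them, while Lyz2 reached it on every array. Csf1r lay at -0.22 and 0.05 and Laptm5 at 0.04 and 0.14. The part of these markers in the members' differences was not tested.

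Dut had the largest difference between the RNAs. It read 9.70 in Het polysome against 9.04 in Het total RNA, and 9.66 in WT polysome against 8.49 in WT total RNA. Both polysome arrays lay above both total arrays, by 0.66 (1.58-fold) and 1.17 (2.24-fold), where 0.529% of all genes were 2-fold higher or more under the WT label. Its other probe set, below the floor, gave 0.33 and 0.24. Probe sets not used but at the floor also passed 1.5-fold under both labels for Prim1 (0.75 and 0.97) and Rpa2 (0.61 and 0.67), and under the Het label for Cdt1 (0.61 and 0.58). Gmnn was 0.35 higher in polysome RNA under the Het and 0.69 under the WT label, Cdt1 0.33 and 0.63, and Rfc3 0.07 and 0.62. For Dut, Gmnn, Cdt1 and Rfc3, as read through the probe sets used, it is the low WT total array that sets the larger value. That array also enters their genotype differences. All MCM genes were above 0 under both labels, between 0.11 and 0.49. At the other end lay Mcm10 at -0.06 and -0.48 and, below the floor, Tyms at -0.09 and -0.24. Mcm10 reached the floor on the WT total array alone, and its other probe set, below the floor, gave -0.02 and -0.05. In the Het libraries Rfc5 was lowest, at -0.27, followed by Chtf8 at -0.15. Below the floor, Orc1 was 0.59 higher in polysome RNA under the Het label and Cdc6 0.59 under the WT label.

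**Figure D5:**
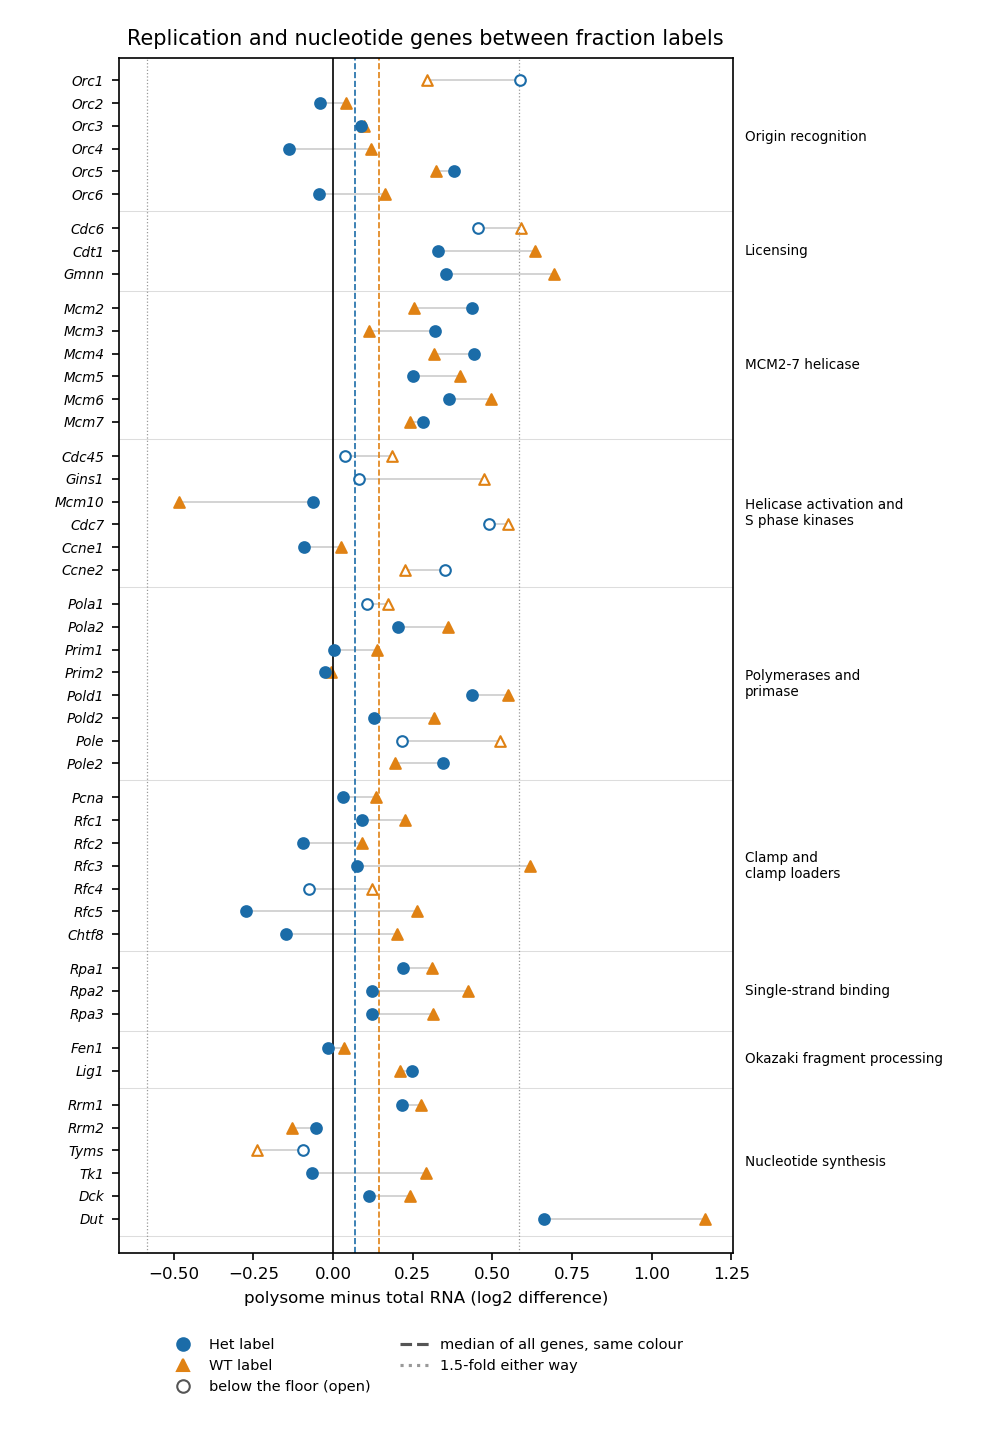
Polysome minus total RNA log2 difference for each member, grouped by role; circles are the Het label, triangles the WT label, open marks genes below the floor, dashed lines the medians of all genes and dotted lines 1.5-fold. Dut lies furthest right (0.66 and 1.17) and Mcm10 furthest left under the WT label (-0.48).

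The polysome minus total difference of the Het libraries, less that of the WT libraries, compares the 2 labels in how polysome RNA read beside total RNA. This value draws on all 4 arrays and equals the polysome genotype difference minus the total one. Whether the labels hold a transcript on ribosomes to different degrees was not tested. No member passed 1.5-fold either way (0.167% of all genes were higher and 0.139% lower). Of 37 members 28 lay below 0, where 67.1% of all genes did, and the median member lay at -0.13 against -0.07 for all genes. Rfc3 and Rfc5 at -0.54 and Dut at -0.51 were the lowest members, at places 15, 21 and 31 from the bottom of the 7179 genes, with the SD between probe sets at 0.22. The second Rfc3 probe set gave -0.18 and the dim one of Dut 0.09. All 6 clamp and loader genes at the floor lay below 0, with a median of -0.27, and the MCM genes lay on both sides, from -0.15 to 0.21. Mcm10 was highest, at 0.42, followed below the floor by Orc1 at 0.29. The Mcm10 value draws on the WT total array through which it passed the floor, and its dim probe set gave 0.03.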

How the data were processed

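Expression was measured on 4 Affymetrix arrays, 1 per combination of genotype label and RNA label. The table the authors deposited holds 22690 probe sets, each with a log2 value for every array. Per the submitters' processing notes these were made with R 3.4.3, affy 1.56.0 and RMA, which corrects background, normalises between arrays and summarises probes; its settings and the genome build are not given in the sources used here. Per the labels' protocols, RNA came from sucrose gradient fractions and was amplified with T7 polymerase before labelling. No detection calls were used, so signal over background is known only from level, and the number of arrays limits precision.

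Groups came from the labels. Probe sets were named from the platform annotation, which gives 1 symbol for 20393 and several for 691, with 1606 not listed. Each gene was read through its probe set with the highest mean, and genes whose highest value reached the median of all values (7.53) were counted. Log2 differences were taken for 5 comparisons with Python 3.11.15, numpy 2.4.6, pandas 2.3.3, scipy 1.17.1 and statsmodels 0.14.6, and the calculation was tested on simulated data. With 1 array per group no p-value was computed. A fixed size of 1.5-fold, a log2 difference of 0.58, replaced a test, with 2-fold and 3-fold beside it. Members given array by array were those at 1.5-fold in any comparison, the 2 widest of each role group by genotype, and the 2 widest each way in each comparison. Mcm2, Mcm5 and Mcm6 were added after their values were seen, to complete the helicase. Other members are given by their differences or ranges. From the other lists, the rule was to name genes at 2-fold or otherwise among the 2 widest in a comparison. It was not applied in full to the cell type markers, nor to Timeless, below the floor at 1.00 between RNAs under the WT label. Ccnb2, Ccnd1, Cdkn1a, Skp2, Samhd1, Csf1r, Laptm5, C1qc, Cd53, Tubb3, Mapt and Sox2 were named after their values were seen. The alternatives tried were averaging a gene's probe sets, leaving out _x_at and _s_at probe sets, dropping the floor, raising it to the 75th percentile (9.33), array centring, quantile normalisation, a loess trend (span 0.3), the median gene as zero, and the set without Dck and Chtf8. The members and lists were chosen with earlier results of these data known. Sequences are from RefSeq (GRCm38.p6), and 8 members had no promoter entry.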

Additional observations from a re-analysis of the deposited data

How the results depend on the processing

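Over these choices, 132 recomputed medians and counts stayed close to those reported (medians within 0.1, counts within 1.5 times) and the others did not, 54 with the same sign and 3 with the other; of 750 values of single members 739 stayed within the spread between probe sets and 11 did not. With the median gene as zero, the median member lay at -0.0506 in total and -0.0273 in polysome RNA; with the floor at the 75th percentile it lay at -0.0337 between RNAs under the Het label, and within 0.1 of the reported median the loess trend also turned the sign, to -0.0186 in polysome RNA. Scaling bears on where zero lies, and fewer genes enter the stricter floor; otherwise the cause was not tested.

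Members counted as higher and lower between genotype labels in total RNA were 2 and 0 at 2-fold, 0 and 0 at 3-fold, 1 and 2 with the stricter floor, and 2 and 8 against the median gene. The mean of all probe sets gave 3 higher, as did leaving out Dck and Chtf8. In polysome RNA they were 0 and 0 at 2-fold and at 3-fold, and 1 and 1 with the stricter floor. The mean of probe sets gave 1 higher and leaving out Dck and Chtf8 gave 0.

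Between RNAs, members higher under the Het label were 0 at 2-fold, 0 at 3-fold, 0 with array centring, 0 with the mean of probe sets and 2 with no floor. Under the WT label they were 1 at 2-fold, 0 at 3-fold, 1 with the stricter floor, 2 with the mean of probe sets, and 1, 2, 1 and 1 with centring, quantile, loess and the median gene, which each gave 1 lower. The median member was then 0.109, 0.113, 0.0894 and 0.0977 under the WT label, and 0.0195 with loess under the Het label.

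The median member in total RNA was 0.25 with the stricter floor and 0.25 with the mean of probe sets. The MCM median in total RNA was -0.66 with quantile normalisation, -0.73 with loess and -0.73 against the median gene; in polysome RNA it was -0.67 against the median gene and -0.69 without shared probe sets. The clamp and loader median in total RNA was 0.39 with the stricter floor, with no floor and without Chtf8, 0.38 with loess and 0.33 against the median gene; in polysome RNA it was 0.11 with loess and against the median gene. No paired analysis was possible because each group holds 1 array, and for that reason no replicate could be left out.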

Other observations

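Genes that rebuild chromatin behind the fork and copy its methylation held both directions. Of 14 such genes 11 reached the floor, with median differences between genotype labels of 0.02 in total and 0.00 in polysome RNA. Dnmt1, the maintenance DNA methyltransferase, read 7.86 in Het against 8.74 in WT total RNA, and 8.20 in Het against 9.06 in WT polysome RNA. Both Het arrays lay below both WT arrays. Stmn1, a tubulin-binding protein of cycling cells, lay at 0.55 and 0.53, the other way from Dnmt1. Among the regulators of entry into S phase, Cdkn1c, the inhibitor p57, was 1.01 higher in polysome than in total RNA under the WT label and 0.70 under the Het label. Cdk6, a kinase of G1, was below the floor on all arrays, at 6.76 in Het against 5.57 in WT total RNA.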
